A study of Homo sapiens with 6 samples.

Results

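The transcriptome described here is that of NCI-N87 cells that carried an empty plasmid. NCI-N87 is an established human gastric carcinoma line, grown from a liver metastasis and known for many copies of the receptor gene ERBB2. The members are the 3 empty-vector libraries of 6 in the series, chosen by the sample titles, and the other 3 libraries, which carried an EGLN3 plasmid, were not compared with them. In all 3 the cells were cultured in RPMI 1640 with fetal bovine serum, received PLVX-IRES-Puro without an insert for 1 day and then stayed under puromycin for 7 days. The cells described are therefore selected, puromycin-treated cells and not untouched parental cells. The labels number the libraries 1 to 3 and do not say whether they came from separate cultures, so the spread given below is that between these libraries and may be technical. EGLN3 itself held 10, 11 and 9 counts in replicates 1 to 3.

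The gastric lining is a simple columnar epithelium whose cells are joined by E-cadherin and tight junctions, carry filaments of the keratins 8, 18 and 19, and secrete mucins, trefoil peptides and digestive enzymes. Gastric carcinomas of the intestinal kind often take on parts of an intestinal programme, in which the homeobox factor CDX2 is central. ERBB2, also called HER2, is a receptor tyrosine kinase with no ligand of its own that signals by pairing with EGFR or ERBB3. Its amplification at 17q12 commonly takes neighbouring genes along.

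Library totals were 16767383, 15948514 and 16498479 gene counts for replicates 1 to 3. Levels are FPKM as deposited, that is counts per length of gene after the authors' own scaling of each library, and are given as mean ± SD over the 3 libraries (n = 3). A gene is called expressed here when its FPKM was at least 1 in each library. For a protein-coding gene of the median length of 4215 bases, that mark corresponded to 73.7, 66.6 and 67.8 counts. Of 58735 annotated genes 11681 were expressed, 19.9% of all, and of 19951 protein-coding genes 10219 were, 51.2%. These shares are the background for every list below. No test was made, because a single group holds no contrast.

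Replicate 1 stood apart from replicates 2 and 3 in a way that followed gene length. Among expressed protein-coding genes split into 5 groups of equal size by length, the shortest group had a median of -0.28 in replicate 1, 0.08 in replicate 2 and 0.20 in replicate 3 (log2 FPKM minus the mean of the 3 libraries). The longest group had medians of 0.23, -0.06 and -0.17. Across genes, Spearman's rho of this deviation with length was 0.626, -0.431 and -0.580 (10219 genes, which share their libraries). The plot of level by gene length shows the opposite slopes. Each value is taken from the mean of the same 3 libraries. A rise in 1 library therefore brings a fall in the others on average, and the slopes are not independent. Ribosomal protein genes, which are short, took 4.97%, 6.86% and 7.50% of counts in replicates 1 to 3, and genes of the mitochondrial genome took 5.25%, 5.35% and 6.48%. The part that RNA quality or library preparation has in this was not tested. For many short genes the value in each library is given below.

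**Figure D1:**
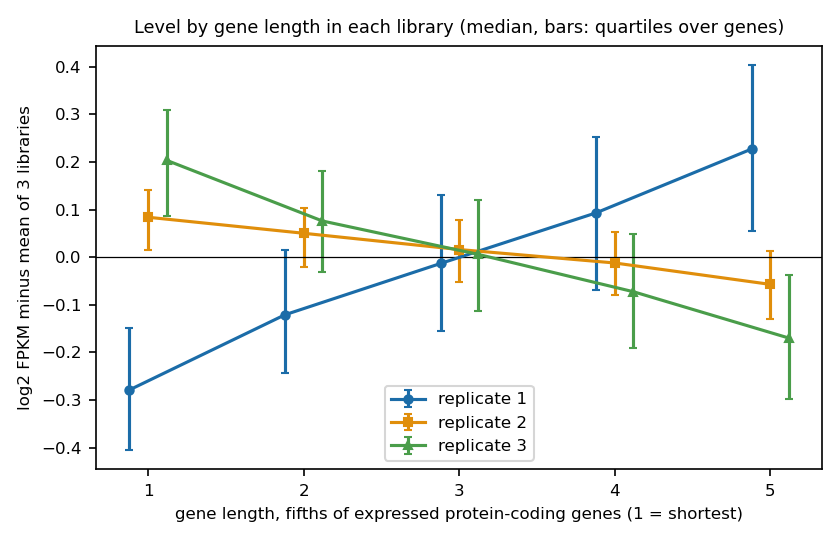
Median log2 FPKM minus the mean of the 3 libraries (y axis) for 5 groups of expressed protein-coding genes from the shortest to the longest (x axis), with bars for the quartiles over genes. Replicate 1 runs from -0.28 to 0.23 and replicate 3 from 0.20 to -0.17, with replicate 2 between them.

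A few transcripts of the respiratory chain, the keratin cytoskeleton and the ribosome led the transcriptome. The 10 genes with the most counts took 8.21%, 9.33% and 9.73% of counts in replicates 1 to 3, the first 100 took 22.1%, 24.4% and 25.5%, and 817 genes held 50% of all counts. In TPM, which divides by gene length, the first 100 took 39.2% on average. MT-CO1, the catalytic subunit of cytochrome c oxidase encoded in mitochondrial DNA, had the highest level of any gene, with 9555, 9922 and 12096 FPKM. MT-CO3 and MT-CO2 of the same complex followed with 6421, 7964 and 10061.5 FPKM and with 6172, 7567 and 9983 FPKM. Outside the mitochondrial genome 12 protein-coding genes had a mean above 1000 FPKM. KRT19, a type I keratin of simple epithelia, led them with 2824, 3889 and 4116 FPKM. RPL19, a protein of the large ribosomal subunit, reached 2361, 3323 and 3690.5 FPKM, and both were lowest in replicate 1. Ranks by FPKM rest on the deposited gene lengths. KRT8, with a length of 6881 bases against 2336 for KRT19, had the lower FPKM but more counts, 1.87% against 0.842%. Whether these lengths match the transcripts present was not tested.

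KRT8, the type II keratin that pairs with keratin 18, collected the most counts of any gene, 1.87% ± 0.183 of all, and stood at 2317, 2939 and 2902 FPKM. KRT18, its partner, stood at 1281, 1806 and 2154 FPKM. The gene spans of KRT8 and KRT18 overlap on opposite strands of chromosome 12, and how strand was handled is not stated in any source used, so a read over the shared stretch could belong to either. KRT17 (2145 ± 293 FPKM) and KRT6A (1227.5 ± 56.8 FPKM) are keratins better known from hair follicles, basal cells and wounded skin than from stomach. Both have close paralogs or pseudogenes, which makes their levels less certain. KRT7 had 383 ± 60.2 FPKM and KRT20, a keratin of gut surface cells, 92.9 ± 5.63 FPKM. Of 55 keratin genes 19 were expressed, 34.5%, and together the family took 4.03%, 4.93% and 4.95% of counts.

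Other nuclear genes at the top encode small cytosolic proteins. TMSB10, which binds actin monomers, had 1736, 2839 and 3232 FPKM, and the calcium-binding proteins S100A11 and S100A6 had 1639.6, 2329.6 and 2844 FPKM and 709, 1091 and 1257 FPKM. All 3 were lowest in replicate 1, as was RPS12 of the small ribosomal subunit with 916, 1467 and 1703.5 FPKM. Other genes at this height differed less between libraries. The elongation factor EEF1A1 stood at 1315 ± 105 FPKM, the chaperone HSP90AB1 at 968 ± 47.4 FPKM and the junction protein JUP, or plakoglobin, at 604 ± 29.4 FPKM. ISG15, a ubiquitin-like protein induced by interferon, was among the first 30 with 545, 830 and 951 FPKM. Of 85 cytosolic ribosomal protein genes 82 were expressed, and 76 had at least 10 FPKM in each library.

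**Figure D2:**
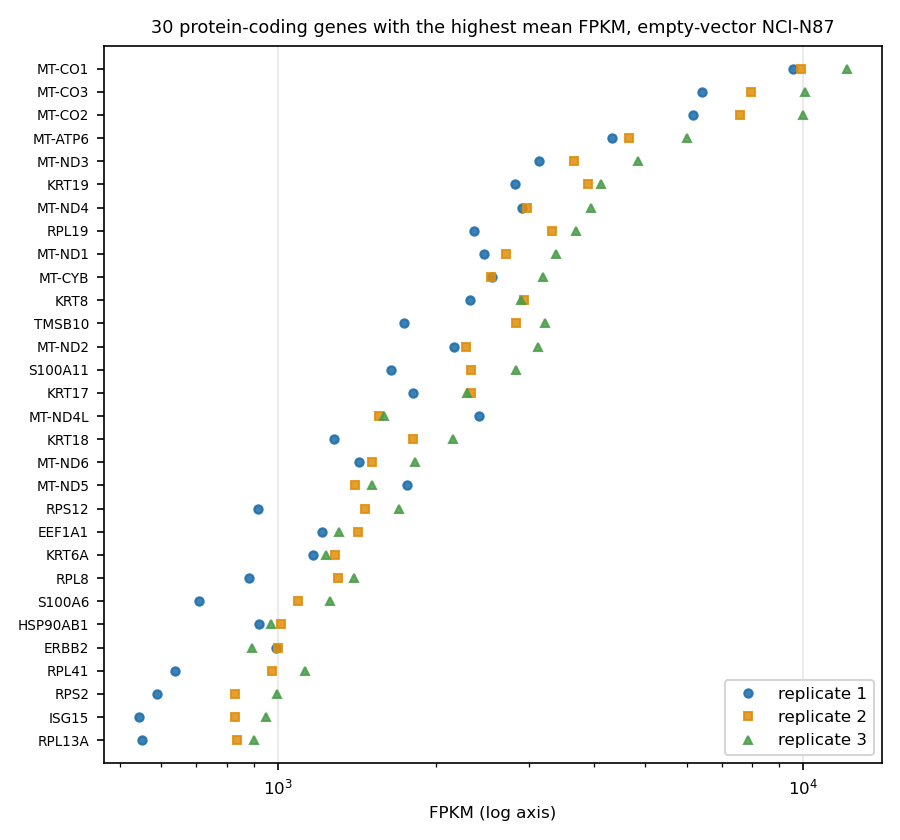
FPKM in each library (x axis, log scale) of the 30 protein-coding genes with the highest mean, in order of that mean (y axis). MT-CO1 leads in all 3 libraries at 9555 to 12096 FPKM, and ERBB2 sits among ribosomal and keratin genes at 894 to 999 FPKM.

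Protein-coding genes made up 87.5% of the expressed genes and 97.2% ± 0.0595 of counts. Of 14994 long non-coding genes 755 were expressed, 5.04%, and of 15224 pseudogenes 498, 3.27%. NORAD, an RNA that binds Pumilio proteins, stood at 67.4 ± 13.2 FPKM, MALAT1, an RNA of nuclear speckles, at 55.6 ± 3.70 FPKM, and the snoRNA host SNHG8 at 51.2, 80.3 and 90.6 FPKM. AC005288.1, an antisense gene, had the highest level of this class, 129.9 ± 3.01 FPKM, and cannot be told from an overlapping gene without strand. The pseudogenes at the top were copies of abundant genes. RPS28P7 had 587, 928 and 1212 FPKM, RPL39P3 619, 860 and 927 FPKM, and RPS2P5 521, 690 and 608 FPKM. Reads of such copies and of their parent genes may be exchanged in counting, so these levels are uncertain.

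Of 7095 small RNA genes 167 were expressed, 2.35%, and 5782 had no count. Short genes reach the mark of 1 FPKM with very few counts. For the 90 bases of MIR200A, 3 counts in a library correspond to up to 2.11 FPKM. The share is therefore not comparable with that of longer genes. Libraries of long RNA do not measure mature small RNAs, and a read at such a locus may come from a longer transcript over it. RN7SL2, a copy of the RNA of the signal recognition particle, varied widely with 538, 853 and 247 FPKM. The mitochondrial ribosomal RNA MT-RNR2 stood at 3580.3 ± 326 FPKM and took 0.559% of counts. The mitochondrial genome as a whole gave 5.70% ± 0.684 of counts, and 20.4% in TPM, which divides by gene length.

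Chromosomes differed in the share of their protein-coding genes that were expressed. The share was highest on chromosomes 16 (58.7%), 22 (57.7%) and 20 (56.7%) and lowest on X (35.5%), 21 (37.2%), 11 (45.5%) and 19 (46.9%). Part of the low end came from gene families that are spread unevenly over the chromosomes. Leaving out olfactory receptor, keratin-associated protein and ZNF genes, a choice made after the values were seen, the share on chromosome 21 was 47.3%, on chromosome 11 52.6% and on chromosome 19 49.9%, while X remained at 35.6% and all chromosomes together at 52.6%. By counts the order was another one. Chromosome 17 gave 10.5% ± 0.240 of all counts, with 5.94% of the protein-coding genes, ahead of chromosome 1 with 9.43% ± 0.0486 and chromosome 12 with 8.59% ± 0.250.

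**Figure D3:**
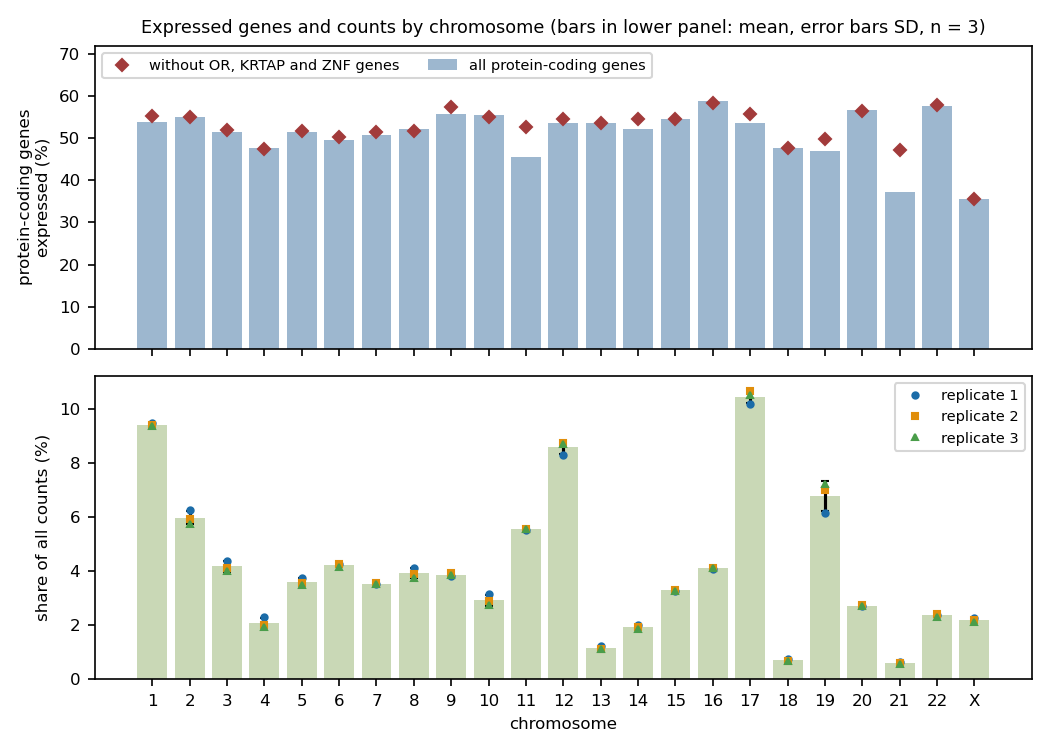
Upper panel: percent of protein-coding genes expressed on each chromosome, as bars for all such genes and as diamonds without olfactory receptor, keratin-associated protein and ZNF genes. Lower panel: percent of all counts from each chromosome (bars are means, error bars SD, n = 3, points the libraries), where chromosome 17 is highest at 10.5% and the bar of chromosome 21 is lowest.

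The ERBB2 segment and the keratins accounted for much of what chromosome 17 gave. Without the genes within 1 Mb of ERBB2 it gave 7.14% ± 0.176 of counts, and without its keratins as well 5.49% ± 0.0787. Chromosome 12 without KRT8, KRT18 and KRT6A gave 5.80% ± 0.0507. The 108 genes within 1 Mb of ERBB2 are 0.184% of all genes, and they gave 3.25%, 3.37% and 3.36% of counts in replicates 1 to 3. Of its 54 protein-coding genes 38 were expressed, 70.4%, and 10, or 18.5%, had at least 100 FPKM in each library, a height that 1.28% of all protein-coding genes reached.

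ERBB2 (ENSG00000141736; chromosome 17, 39687914 to 39730426 on the plus strand of GRCh38) had 178651, 163027 and 148326 counts, or 990, 999 and 894 FPKM. It took 0.996% of counts, the third place among all genes, and was the 26th protein-coding gene by FPKM. GRB7, an adaptor that binds active ERBB2 and lies next to it, stood at 447, 547 and 616 FPKM. MIEN1, a small membrane-anchored protein, stood at 395, 536 and 680 FPKM, and its span overlaps the end of ERBB2 on the other strand. STARD3, which carries cholesterol between membranes, had 269 ± 30.7 FPKM, and PGAP3, an enzyme that remodels GPI anchors and overlaps the start of ERBB2, had 127 ± 12.3 FPKM. Other genes of the segment were high as well. RPL19, given above, also lies in the segment and alone took 0.549% of all counts, so part of the segment's share comes from a ribosomal protein gene. The proteasome subunit PSMB3 had 507, 759 and 847 FPKM, the ribosomal protein gene RPL23 485 ± 107 FPKM, the actin-binding LASP1 182 ± 12.5 FPKM and the cyclin-dependent kinase CDK12 74.4 ± 24.8 FPKM. Copy number was not measured in these data.

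The label of an epithelial carcinoma line was set beside marker genes. All 5 genes of the epithelial list were expressed. KRT8, KRT18 and ERBB2 of this list were already given above. The line is known for many copies of ERBB2, so the level of that gene says little on cell type. The other members were EPCAM, an adhesion protein of epithelia, with 143, 173 and 168 FPKM, and CDH1, E-cadherin, with 62.0, 52.0 and 48.3 FPKM. Markers of other cell types were at or near 0. None of 10 fibroblast, 8 neuroendocrine, 6 muscle or 5 erythroid markers was expressed, and the summed level of the fibroblast list lay between 0.664 and 0.759 FPKM in the 3 libraries, that of the neuroendocrine list between 0.339 and 0.514, of the muscle list between 0.377 and 0.569 and of the erythroid list between 0.480 and 0.610 FPKM. COL1A2, DCN, LUM and PDGFRA had no count. Of 10 leukocyte markers CD14 was expressed, at 1.25 ± 0.101 FPKM, with PTPRC at 0.0220 FPKM and CD3D, MS4A1 and CD2 at 0 counts. Of 8 endothelial markers EGFL7 was, at 2.60, 4.49 and 4.92 FPKM, with PECAM1 at 0.00267 FPKM and ERG at 0 counts. The summed level was 1.82 to 2.86 FPKM for the leukocyte list and 2.88 to 5.32 FPKM for the endothelial list. In bulk RNA fewer cells of a type and less RNA per cell cannot be told apart.

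Of 35 lineage transcription and splicing factors 20 were expressed, 57.1%, near the 51.2% of all protein-coding genes. KLF5, a zinc finger factor of proliferating epithelium, led with 72.9, 59.0 and 56.9 FPKM, followed by SOX9, a factor of progenitor cells, with 44.4, 34.7 and 34.2 FPKM. ESRP1 and ESRP2, which set the epithelial pattern of splicing, had 37.6 ± 2.80 and 24.1 ± 1.98 FPKM, and the ETS factor ELF3 had 35.1 ± 2.33 FPKM. EHF, another ETS factor, varied more between libraries, with 38.7, 20.7 and 11.03 FPKM. GRHL2, which maintains junction genes, had 11.3 ± 1.95 FPKM.

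CDX2, the intestinal homeobox factor, was expressed in each library, with 8.31, 9.26 and 10.8 FPKM. CDX1, its relative, had no count, as had ISX and ATOH1, factors of absorptive and secretory intestinal cells, and NKX6-3 of the gastric antrum. GATA4 and GATA6, which pattern foregut endoderm, had 5.34 ± 0.471 and 4.01 ± 0.157 FPKM, and HNF4A 3.40 ± 0.297 FPKM. SOX2, a factor of foregut and stomach, was below the mark with 0.523, 0.478 and 0.248 FPKM, and FOXA2 with 0.329 ± 0.111 FPKM. The gut patterning factors named here stood below KLF5, SOX9 and ELF3 in each library.

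Most products of differentiated stomach cells stayed below the mark. Of 27 gastric products 4 were expressed, 14.8%, and 9 had no count, 33.3%, against 18.2% of protein-coding genes without a count. At a mark of 0.1 FPKM 12 of the 27 were expressed. PSCA, a GPI-anchored surface protein of gastric epithelium, had 43.6, 59.0 and 73.8 FPKM. GAST, which encodes the hormone gastrin of antral G cells, had 33.9, 50.2 and 60.7 FPKM, while its receptor CCKBR had no count. AQP5, a water channel of pyloric glands, had 42.1 ± 6.07 FPKM, and AGR2, a disulfide isomerase for mucin folding, 9.91 ± 1.45 FPKM. The secreted mucins and trefoil peptides of the stomach named here were nearly absent. MUC5AC had 0.325 ± 0.0997 FPKM, MUC6 0.126 ± 0.0435 FPKM and TFF1 2, 3 and 5 counts. The junction protein CLDN18 held 3, 0 and 0 counts. TFF3, GKN2, LIPF, PGA3, PGA4, GIF, SST and the proton pump subunit ATP4B had no count, which for gastric lipase, LIPF, allows at most 0.0808 FPKM (3 counts in a library). PGA3 and PGA4 are near-identical copies, and reads that fit both may have been lost in counting.

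Of 29 intestinal products 4 were expressed, 13.8%, and 6 had no count. At a mark of 0.1 FPKM 8 were expressed. CEACAM6, an adhesion protein common in gut carcinomas, had 224, 227 and 243 FPKM, and CEACAM5, the carcinoembryonic antigen, 11.3 ± 0.702 FPKM. KRT20 had 91.5, 99.0 and 88.0 FPKM and the membrane mucin MUC13 3.44 ± 0.290 FPKM. Their CVs ran from 4.35% to 8.42%, below the median of 14.2% over all expressed genes. Below the mark, among others, were the intestinal cadherin CDH17 at 0.0875 ± 0.0358 FPKM, the goblet cell mucin MUC2 at 3, 1 and 3 counts and the brush border protein VIL1 at 0.621 ± 0.0708 FPKM. The fatty acid carrier FABP1, APOA4, GUCA2A, REG4, CA4 and MEP1A had no count.

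**Figure D4:**
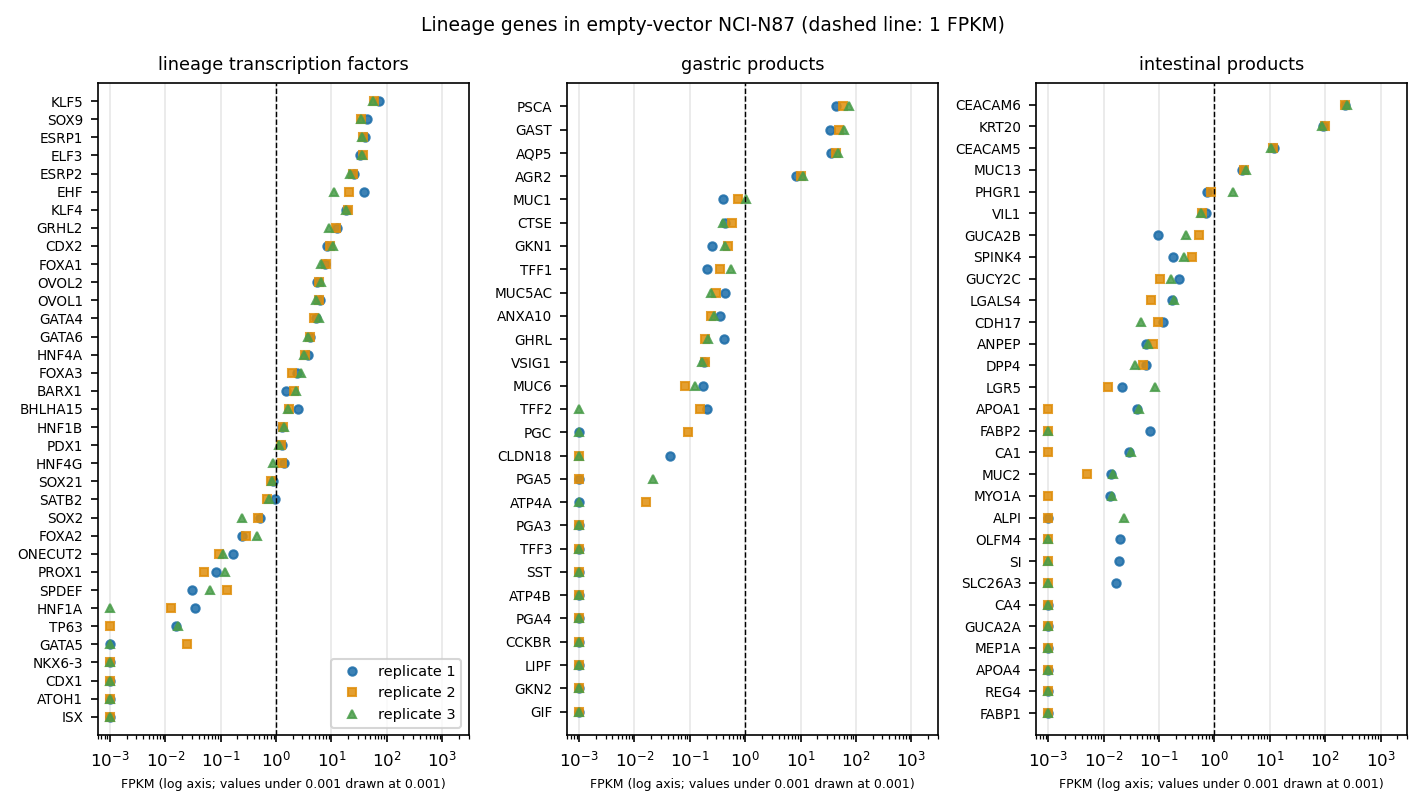
FPKM (x axes, log scale, values under 0.001 drawn at 0.001) in each library for lineage factors, gastric products and intestinal products (y axes, in order of mean), with a dashed line at 1 FPKM. Most lineage factors lie right of the line and most gastric and intestinal products left of it, apart from PSCA, GAST, AQP5, AGR2, CEACAM6, KRT20, CEACAM5 and MUC13.

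Promoter sequences of 3 genes are shown as examples of windows with 9, 5 and 0 CG pairs, and single genes do not stand for genes of their level. Each is the stretch of 250 bases before the RefSeq start on GRCh38.p14, plus strand, 5′ to 3′, with CG pairs and the letters TATAAA (on either strand, so also TTTATA) in capitals. RPL19 (chr17:39200033-39200282), among the most abundant nuclear genes, has 9 CG pairs. Bases G and C make up 44% of its stretch, below the median of 65.7% in the 300-base windows of expressed genes described below. GAST (chr17:41712081-41712330), the expressed hormone, has 5 and TATAAA on the other strand, beginning 33 bases before the start. LIPF (chr10:88664192-88664441), a gastric gene without a count, has 0.
RPL19: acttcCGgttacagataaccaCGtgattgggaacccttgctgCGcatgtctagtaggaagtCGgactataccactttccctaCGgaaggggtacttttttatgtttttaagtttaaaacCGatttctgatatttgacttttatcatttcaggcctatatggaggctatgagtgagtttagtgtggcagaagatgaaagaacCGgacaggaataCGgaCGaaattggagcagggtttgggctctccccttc
GAST: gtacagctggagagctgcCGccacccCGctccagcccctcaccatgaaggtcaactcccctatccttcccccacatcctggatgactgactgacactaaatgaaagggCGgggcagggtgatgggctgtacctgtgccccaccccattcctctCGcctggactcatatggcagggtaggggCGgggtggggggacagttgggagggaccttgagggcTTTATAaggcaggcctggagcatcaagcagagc
LIPF: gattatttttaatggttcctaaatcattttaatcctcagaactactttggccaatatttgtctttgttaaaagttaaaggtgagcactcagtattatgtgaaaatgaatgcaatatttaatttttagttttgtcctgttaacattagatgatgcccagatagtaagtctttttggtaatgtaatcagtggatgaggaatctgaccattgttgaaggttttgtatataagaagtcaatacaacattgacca

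Among protein-coding genes that could be matched to a promoter, expressed ones were richer in CG pairs than the whole matched set, which includes them. The measure was the observed over expected number of CG pairs in a window of 300 bases, 250 before the start and 50 after it, for protein-coding genes outside chromosome 8 that matched RefSeq by symbol or synonym. Of these 15433 of 19268 matched, and 8433 of 9862 expressed ones. The median ratio was 0.853 in expressed genes and 0.768 in all matched genes, and 85.5% of expressed genes exceeded 0.6, against 66.6% of all. TATAAA on either strand stood in 5.25% of expressed promoters and in 9.59% of all, but in 12.1% of those with a mean of at least 100 FPKM. Among genes without a count under 80% matched, so no value is given for them. A match of letters is a description of the window and does not show that a factor binds there.

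Receptor tyrosine kinases formed a steep ladder under ERBB2. Of 58 genes 27 were expressed, 46.6%, and 11 of them had at least 10 FPKM in each library. EPHA2, an ephrin receptor, was next with 89.6, 85.8 and 79.8 FPKM, so ERBB2 stood at 961 ± 58.4 FPKM against 85.1 ± 4.92 FPKM. MST1R, the receptor for macrophage-stimulating protein, had 37.3 ± 0.311 FPKM, and the collagen receptor DDR1 24.8 ± 1.12 FPKM. The partners of ERBB2 were present at lower levels. EGFR had 26.1, 14.5 and 13.0 FPKM and ERBB3 14.9, 11.1 and 10.2 FPKM, while ERBB4 held 2, 0 and 1 counts. MET, the receptor for hepatocyte growth factor, had 31.7, 22.1 and 18.3 FPKM. All of EGFR, ERBB3 and MET were highest in replicate 1. FGFR4 had 13.5 ± 1.15 FPKM, but FGFR2, which is amplified in some gastric cancers, stayed at 1.05, 0.660 and 0.689 FPKM. KIT, PDGFRA, RET, ROS1, EPHA5 and EPHA6 had no count.

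Some ligand genes of the EGF, BMP, WNT and FGF families were also transcribed. Of 11 EGF-family ligands 6 were expressed, 54.5%. TGFA, a ligand of EGFR, led with 20.6 ± 1.78 FPKM, then AREG with 8.74 ± 2.19 FPKM and EREG with 4.61 ± 0.874 FPKM. BMP4, a signal of the TGF-beta superfamily, had 262, 287 and 287 FPKM, the highest level of a protein-coding gene on chromosome 14, and BMP7 had 19.97 ± 0.0270 FPKM. WNT11 had 134, 168 and 169 FPKM, the highest of 19 WNT genes, of which 6 were expressed, 31.6%. Of 22 FGF genes 5 were, 22.7%, including FGF3 with 9.94, 16.6 and 19.8 FPKM and FGF20 with 14.1 ± 1.80 FPKM. The shares of WNT, FGF and BMP genes (3 of 10 BMP genes, 30%) lay below the 51.2% of all protein-coding genes. These families were chosen by their symbols after the values had been seen.

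Nuclear receptors were expressed at about the share of all protein-coding genes, 25 of 48 or 52.1%, with the orphan receptors and the retinoid and lipid sensors at the top. NR2F6, an orphan receptor, had 38.7, 55.0 and 58.5 FPKM, and ESRRA, which drives mitochondrial genes, 36.4 ± 3.50 FPKM. The retinoic acid receptor RARG had 30.5 ± 2.20 FPKM, the oxysterol receptor NR1H2 24.6 ± 4.02 FPKM and the fatty acid sensor PPARG 21.1, 24.5 and 24.8 FPKM. PPARD differed very little between libraries, with 19.5, 19.3 and 19.2 FPKM. The estrogen receptor ESR1 was near the floor with 11, 6 and 6 counts, and RORB, RXRG, NR2E1 and NR0B1 had none.

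**Figure D5:**
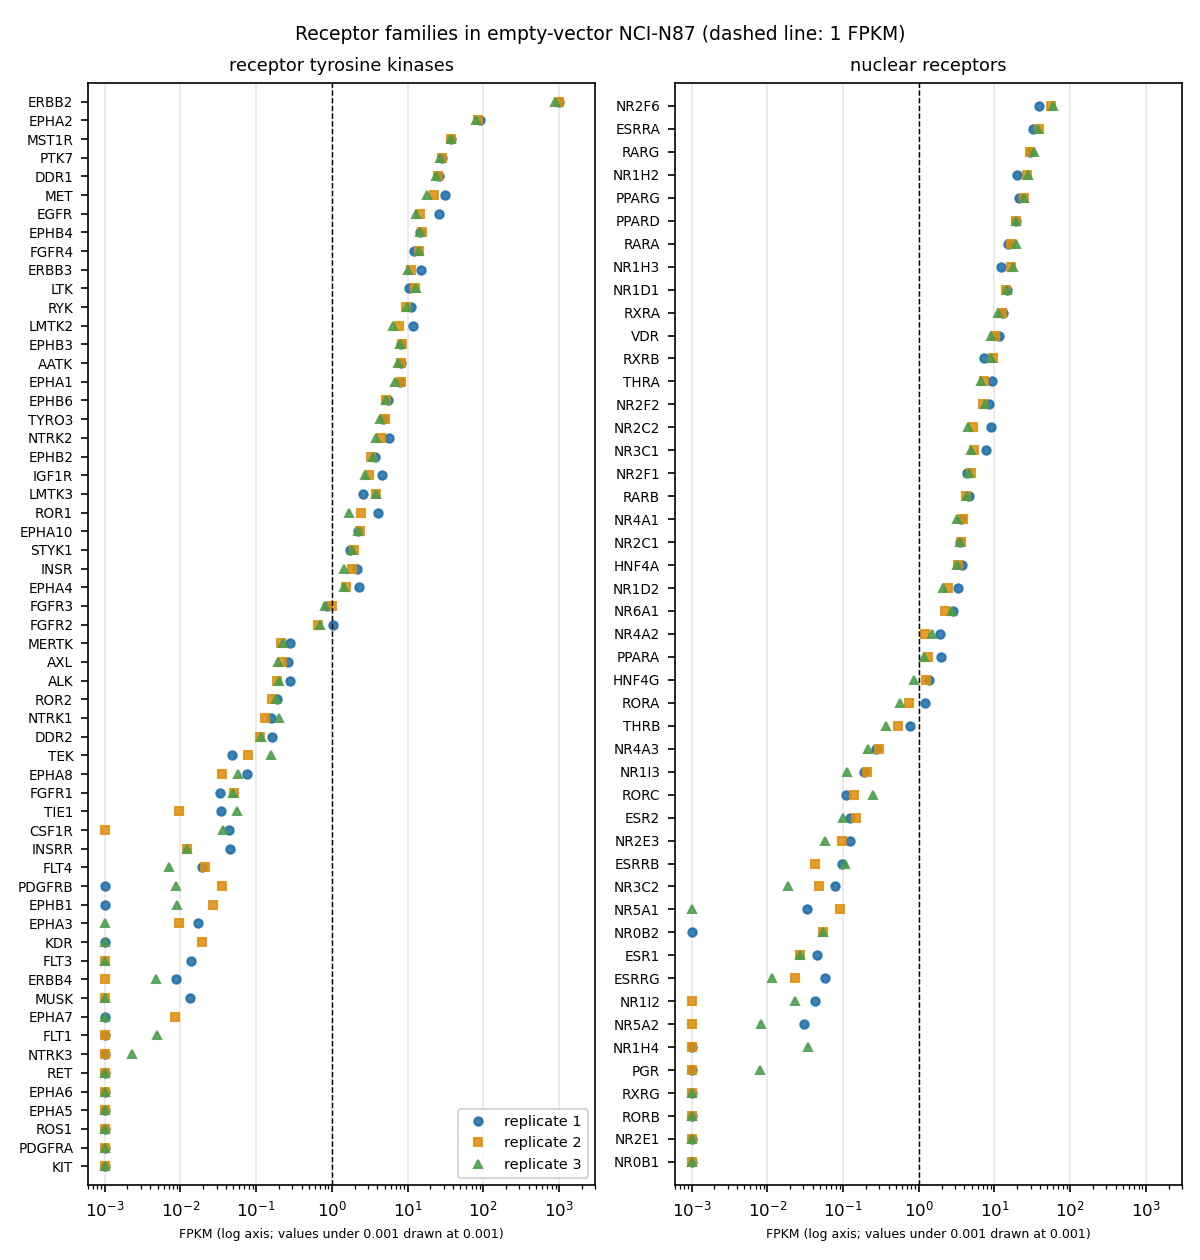
FPKM (x axes, log scale, values under 0.001 drawn at 0.001) in each library for the receptor tyrosine kinases and all nuclear receptors of the lists but 1 (y axes, in order of mean), with a dashed line at 1 FPKM. ERBB2 lies alone near 961 FPKM, EPHA2 follows at 85.1 FPKM, and nuclear receptors begin at 50.7 FPKM with NR2F6.

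Cytokine receptors of the TNF group led their list, in which 32 of 55 were expressed, 58.2%. TNFRSF12A, the receptor for TWEAK, had 131, 165 and 204 FPKM, LTBR, the lymphotoxin receptor, 34.8 ± 5.38 FPKM and TNFRSF1A, the main TNF receptor, 24.9 ± 4.25 FPKM. IL20RA had 26.7 ± 1.22 FPKM and TGFBR2 16.7 ± 3.41 FPKM. The counted levels of the chains of a receptor were not always alike. IFNAR1 of the type I interferon receptor had 7.45 ± 0.629 FPKM, whereas its partner IFNAR2 had 0.211, 0.562 and 0.283 FPKM. Whether reads of IFNAR2 shared with an overlapping gene were lost in counting was not tested. Receptor chains of blood cells had no count, namely IL2RA, CSF2RB and CSF3R, and neither had GHR, the growth hormone receptor.

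Most G protein-coupled receptors stayed below the mark. Of 75 hand-picked genes 19 were expressed, 25.3%, and 18 had no count, 24.0%. At a mark of 0.1 FPKM 34 were expressed. GPRC5A, an orphan receptor induced by retinoic acid, had 170, 155 and 164 FPKM. The Wnt receptors FZD6 and FZD7 had 19.5 ± 3.37 and 17.9 ± 2.52 FPKM, and LGR6, a receptor for R-spondins, had 14.5 ± 0.486 FPKM. LGR5, its relative and a marker of gut stem cells, held 2, 1 and 7 counts. The chemokine receptor CXCR4 held 0, 0 and 2 counts, and CXCR2, CCR2 and CCR6 none.

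Many surface proteins against which antibodies or cell therapies have been made were expressed, 24 of 36 or 66.7%. ERBB2 and CEACAM6 were among the highest, and MSLN, mesothelin, had 173, 243 and 266 FPKM. EPCAM, F3 (tissue factor, 101 ± 3.42 FPKM) and PSCA followed. CD274, which encodes PD-L1, was low but expressed with 3.34, 2.56 and 2.60 FPKM. CLDN18 and CDH17, members that other gastric cancers carry, were near 0. CDH6 and LRRC15, also on this list, had no count. Protein on the surface was not measured.

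Families of cell contact genes differed in the share that was expressed. Of 21 claudins, the strand proteins of tight junctions, 6 were expressed, 28.6%. CLDN4 had 137, 174 and 187 FPKM, CLDN7 69.5, 90.5 and 106 FPKM and CLDN3 9.74, 16.8 and 16.7 FPKM. Of 23 cadherins 3 were expressed, 13.0%, and 10 had no count, 43.5%. These were CDH1, CDH3 or P-cadherin with 21.5 ± 0.434 FPKM, and CDH24 with 2.04 ± 0.130 FPKM, while CDH2, N-cadherin, had none. Of 26 integrins 14 were, 53.8%. The laminin receptor of hemidesmosomes, made of ITGA6 and ITGB4, led with 97.7 ± 23.6 and 97.6 ± 7.23 FPKM, and 7 of 12 laminin genes were expressed, LAMB3 at 148.8 ± 12.4 FPKM. Of 44 collagens 4 were, and COL9A3 was the highest with 8.65 ± 1.28 FPKM.

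Mesenchymal regulators were mixed. Of 10 genes 3 were expressed, FN1 with 7.08, 4.69 and 3.41 FPKM, TWIST1 with 2.64 ± 0.342 FPKM and SNAI1 with 2.41 ± 0.0801 FPKM. VIM, the intermediate filament of mesenchymal cells, had 0.177, 0.294 and 0.326 FPKM. ZEB1 had 0.294 ± 0.122 FPKM and ZEB2 8, 3 and 4 counts, while TWIST2, CDH2 and PRRX1 had no count. ZEB1 and ZEB2 are repressors of CDH1 and known targets of the miR-200 family.

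The mature sequences of that family are shown because their shared seeds define the group, from RefSeq on GRCh38.p14, 5′ to 3′, with the seed (bases 2 to 8) in capitals. The first 2 share one seed and the other 3 share another.
hsa-miR-200a-3p: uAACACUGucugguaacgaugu
hsa-miR-141-3p: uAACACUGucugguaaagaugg
hsa-miR-200b-3p: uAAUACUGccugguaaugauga
hsa-miR-200c-3p: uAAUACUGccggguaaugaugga
hsa-miR-429: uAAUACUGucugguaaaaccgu
The loci on chromosome 1 carried counts in each library, 54, 62 and 40 at MIR200B, 50, 45 and 36 at MIR200A and 111, 136 and 141 at MIR429. Those on chromosome 12 carried few, 1, 4 and 3 at MIR200C and 0, 5 and 6 at MIR141. Such reads may come from long transcripts over the hairpin, and the mature microRNAs were not measured.

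The HOX clusters, which record position along the body axis, were expressed unevenly. The B and C clusters had 6 of 10 and 6 of 9 genes expressed, the A cluster 5 of 11 and the D cluster 0 of 9. HOXB7 had 25.5, 33.0 and 37.1 FPKM, HOXB6 21.7 ± 3.17 FPKM and HOXB5 18.5 ± 5.71 FPKM, and HOXC10 stood at 19.1 ± 1.88 FPKM. HOXB13, HOXD1 and HOXD11 had no count. Across all genes that the deposited table assigns to a transcription factor family, 760 of 1553 were expressed, 48.9%. Among homeobox genes 48 of 192 were, 25%, and among basic helix-loop-helix genes 34 of 101, 33.7%, against 32 of 48 bZIP genes, 66.7%, and 10 of 11 E2F genes. The factor genes at the top were YBX1, a cold shock protein that binds RNA, with 738 ± 121 FPKM, and the chromatin protein HMGA1 with 302 ± 47.6 FPKM. MYC had 87.01, 99.2 and 90.9 FPKM.

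Tumour suppressors were expressed in 24 of 26 cases, 92.3%, and the 2 below the mark were SMAD4 and FHIT. SMAD4, the shared mediator of TGF-beta and BMP signals on chromosome 18, had 33, 36 and 45 counts, or 0.144, 0.174 and 0.213 FPKM. Loss in counting of SMAD4 reads shared with an overlapping gene was not tested. FHIT, at a fragile site of chromosome 3, had 0.284, 0.209 and 0.412 FPKM. CDKN2A, which encodes the cell cycle inhibitor p16, was high with 47.5, 67.8 and 83.7 FPKM. RB1, the brake on entry into S phase, had 8.80 ± 1.75 FPKM. RNA levels do not show whether a gene carries a mutation.

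Transporters and enzymes gave further members at high level. SLC2A1, the glucose transporter GLUT1, had 392, 396 and 413 FPKM, the highest of 346 solute carriers, of which 159 were expressed, 45.95%. TSPAN1, a tetraspanin of epithelia, had 232, 294 and 325 FPKM. ALDH1A1, which makes retinoic acid, had 90.9 ± 3.20 FPKM, and 15 of 19 aldehyde dehydrogenases were expressed. Of 56 cytochrome P450 genes 13 were, led by CYP24A1, which breaks down vitamin D, with 17.003 ± 3.06 FPKM.

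Nearly as many genes had no count as had one. Of all 58735 genes 29132 had no count in any library, 49.6%, and of protein-coding genes 3629, 18.2%, while 6103 had counts but stayed below the mark. Olfactory receptors, hair proteins, defensins and cancer-testis genes stood above that share. Of 386 olfactory receptor genes 360 had no count, 93.3%, and 0 were expressed, and of 94 keratin-associated protein genes 74 had none, 78.7%. Of 39 beta-defensins 34 had none, and of 24 bitter taste receptors 10 had none, 41.7%, with 0 expressed. Of 26 cancer-testis genes 21 had none, 80.8%, and the helicase DDX43 was expressed, with 3.41 ± 0.290 FPKM. Several cancer-testis genes, olfactory receptors and defensins have near-identical copies, so loss of shared reads in counting could add to these numbers. Among genes of stem cells, liver and pancreas 1 of 14 was expressed, the protease inhibitor SERPINA1 with 23.1, 29.1 and 31.4 FPKM, and NANOG, AFP, APOB, TTR, INS and AMY2A had no count.

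The spread between the 3 libraries was small for most genes and smaller still without replicate 1. The coefficient of variation (CV, SD over mean of FPKM) of expressed genes had a median of 14.2%, with quartiles of 8.34% and 22.3%, where counting error alone would give a median of 4.23%. Without replicate 1 the median was 6.96%. The common dispersion from edgeR, expressed as a biological CV, was 18.9% over the 3 libraries and 9.39%, 24.95% and 18.2% without replicates 1, 2 and 3. Of 11681 expressed genes 364 were at least 2-fold higher in replicate 1 than in replicate 3, 3.12%, and 248 at least 2-fold lower, 2.12%. Between replicates 2 and 3 the numbers were 65, 0.556%, and 42, 0.36%. Between replicates 1 and 2 they were 107, 0.916%, and 74, 0.634%. Spearman's rho across expressed genes was 0.967 for replicates 1 and 2, 0.944 for 1 and 3 and 0.985 for 2 and 3.

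A CV above 50% was found in 168 expressed genes, 1.44%. Among 4210 protein-coding genes with a mean of at least 10 FPKM, the 15 with the largest CV had a median length of 13085 bases against 4092.5 for all, and 14 of them were highest in replicate 1. NFAT5, a factor of osmotic stress, had 19.6, 5.65 and 5.03 FPKM, and the histone methyltransferase KMT2D had 17.05, 7.14 and 6.40 FPKM. AHNAK, a giant scaffold protein, had 100.1, 52.3 and 39.4 FPKM, and the cadherin FAT1 64.3, 32.0 and 25.9 FPKM. All 4 were highest in replicate 1. EHF and the matrix protein VWA2 also differed between replicates 2 and 3, with 34.4, 18.96 and 9.69 FPKM for VWA2. LDHB, a lactate dehydrogenase subunit, was the exception, lowest in replicate 1 with 5.62, 11.1 and 15.7 FPKM.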

How the data were processed

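Per the labels, total RNA was taken with Trizol and sequenced after a standard Illumina library protocol. The authors deposited whole-number gene counts, with no scaling, and FPKM for 58735 genes with their coordinates and types. HISAT2 2.0.5, featureCounts 1.5.0-p3, DESeq2 1.20.0 and the build hg38 are named in the submitters' processing notes, without roles. Annotation and strandedness: not given in the sources used here. From the values, the deposited FPKM are each count over the gene's length and a factor of its library. They summed to 273977, 315890 and 341024 FPKM in replicates 1 to 3, so 1 FPKM here is more than 1 TPM.

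Shares, means, SDs and CVs were computed from these values with pandas 2.3.3 in Python 3.11.15. The dispersion was estimated with edgeR 4.0.16 (R 4.3.3, TMM scaling, an intercept alone). No test between groups was made. Promoter and microRNA sequences came from RefSeq tables on GRCh38.p14, used only for sequence.

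The members and the 26 gene lists were chosen with earlier results of these data known, and 23 families were taken by symbol after the values had been seen. Genes to name were drawn from the 20 protein-coding genes and 5 genes of each other class with the highest mean FPKM, up to 6 of the highest members of each list and those without a count, the 15 protein-coding genes with mean FPKM of at least 10 and the largest CV, the highest protein-coding gene of each chromosome, and the genes with the most counts within 1 Mb of ERBB2. Other named genes were chosen after their values were seen. Genes of the Y chromosome and XIST were left out of the genes named, while totals over all genes include them. Alternatives were other marks for expression (0.5 and 0.1 FPKM, 10 counts, 1 TPM, a mean of 1 FPKM), TPM, other scaling and leaving out each library. A few members of the lists are counted with their list and not reported by name here.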

Additional observations from a re-analysis of the deposited data

How the results depend on the processing

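The number of expressed genes was 11681. It was 13600 at a mark of 0.5 FPKM, 17751 at 0.1 FPKM, 14669 at 10 counts, 14748 at 1 TPM and 12692 at a mean of 1 FPKM. With 1 library left out it was 11888 to 12028. The protein-coding share of expressed genes was 82.1% at 0.5 FPKM, 71.98% at 0.1 FPKM, 84.8% at 10 counts, 78.96% at 1 TPM, 83.2% at a mean of 1 FPKM, and 86.02% to 86.4% with 1 library left out. In the same order the expressed share of protein-coding genes was 55.99%, 64.04%, 62.3%, 58.4% and 52.9%, and 51.5% to 51.9% with 1 library left out. It was 52.6% without olfactory receptor, keratin-associated protein and ZNF genes, an alternative chosen after seeing the data. In TPM the first 100 genes held 39.2%, the mitochondrial genome 20.4% and the ERBB2 segment 2.71%. In counts of protein-coding genes alone the segment held 3.40%. The median CV was 33.8% with no filter but a count above 0, and 6.96% to 17.1% with 1 library left out, lowest without replicate 1. The median CG ratio was 0.868 at a mark of 10 FPKM, and 0.852 to 0.853 with 1 library left out. Numbers of expressed list members moved by over 1.5 times in 14 of 130 list results, 1 at 0.5 FPKM and 13 at 0.1 FPKM. At 0.1 FPKM the numbers were 12 gastric products, 8 intestinal products, 34 G protein-coupled receptors, 10 HOXA genes, 5 mesenchymal regulators, 3 pluripotency and liver genes, 2 each of the fibroblast, endothelial, leukocyte, muscle and cancer-testis lists, and 1 each of the neuroendocrine and HOXD lists. In the 78 list results without 1 library they moved by at most 1 member. No paired analysis was possible because only 1 group was described and no contrast was made. Depth limits statements on absence, since a gene without a count could still hold up to 3 in a library.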
